A study of Mus musculus with 3 samples.

Results

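Transcription factors that set myeloid and dendritic cell identity were followed across 3 cultures of mouse bone marrow-derived dendritic cells. The genes were chosen by role, with earlier results of these data known. They were Spi1, Cebpa, Cebpb, Cebpd, Cebpe, Id2, Batf3, Zeb2 and Runx3, 9 genes in all. The platform annotation gave probe sets of their own to 8 of them, among 18193 such genes on the array. These 8 genes had 17 probe sets, none of which was shared with another gene. No probe set was listed for Cebpe, which was not analysed here. All cells were grown from bone marrow for 10 days with 10 ng/ml GM-CSF, a growth factor that drives myeloid precursors towards dendritic cells and macrophages. The conditions were 3 h of LPS at 10 ng/ml with 8-Br-cAMP at 100 µM, LPS alone at the same dose and time, and no stimulation, for which no incubation time is recorded. LPS is a bacterial cell wall component sensed by Tlr4, and 8-Br-cAMP is a cell-permeable analogue of cyclic AMP. The sources used here state no strain, sex or age of the mice, and no culture received the analogue without LPS. With 1 array per condition the differences below have no replicate check, and no test was made.

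Spi1 encodes PU.1, an ETS family factor that opens myeloid enhancers and is needed by all myeloid lineages. The C/EBP proteins bind DNA as leucine zipper dimers: Cebpa starts the granulocyte and monocyte programme in progenitors, Cebpb and Cebpd serve inflammatory and acute-phase transcription, and Cebpe late granulocyte maturation. Id2 is a helix-loop-helix protein without a DNA-binding region that holds E proteins inactive, which favours conventional over plasmacytoid dendritic cells. Batf3 is an AP-1 type partner factor needed for type 1 conventional dendritic cells, Zeb2 is a zinc finger repressor needed for plasmacytoid cells and monocytes, and Runx3 is a runt domain factor of dendritic and cytotoxic lymphoid cells.

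Signals are given after scaling the arrays to a common trimmed mean, and those under a floor of 32.5 count as not measured above background. The brightest probe set, by mean over the arrays, stands for its gene. The error of 1 probe set, estimated from the disagreement of the brightest probe sets of the same gene, was 0.53 log2 units for LPS+8-Br-cAMP against LPS (5285 genes), 0.49 for LPS against unstimulated (5320 genes), and 0.62, over 5472 genes, for LPS+8-Br-cAMP against unstimulated. This is scatter within these arrays, not the spread between cultures. Before scaling the LPS+8-Br-cAMP array was the dimmest, with a trimmed mean of 63.2 against 111 with LPS and 135 unstimulated.

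The cultures also differed in sex-linked transcripts and in markers of other cell types. Xist, the RNA that silences an X chromosome in female cells, read 1716 in scaled signal with LPS+8-Br-cAMP, against 8.08 with LPS and 32.3 unstimulated, and the Y-linked Eif2s3y had 1.24 with LPS+8-Br-cAMP, against 272 with LPS and 352 unstimulated. Each condition was 1 sample, so the animals behind it and the treatment cannot be told apart in any difference that involves the LPS+8-Br-cAMP array. Dendritic cell markers (11 of 11) and macrophage markers (9 of 9) were above the floor on all arrays, with summed signals of 44230, 33182 and 26820 for the first list and 31783, 35691 and 36401 for the second, in the order LPS+8-Br-cAMP, LPS and unstimulated. Granulocyte markers (13 of 13 above the floor) summed to 24207, 45532 and 43386 in that order, eosinophil markers (3, 4 and 4 of 6) to 508, 1501 and 1413, mast cell and basophil markers (4, 5 and 5 of 7) to 334, 496 and 694, and B cell markers (5, 7 and 7 of 8) to 325, 3080 and 5025. On the LPS and unstimulated arrays the B cell sum lay mostly in Ighm (1495 and 3086), Igha (881 and 903) and Jchain (529 and 716). With LPS+8-Br-cAMP these read 52.5, 57.0 and 23.2. No other gene of that list read above 97.9 on any array. Of the 8 B cell markers 3 were higher and 5 lower with LPS+8-Br-cAMP than with LPS. T and NK cell markers were near background, with 2, 1 and 4 of 7 above the floor and Cd3e, Cd3g and Cd8b1 under it everywhere. Ccr3 and Il5ra of the eosinophil list and Tpsb2 of the mast cell list were likewise under the floor on all arrays.

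Promoters are shown for the members with an entry that were at least 2-fold apart between LPS+8-Br-cAMP and unstimulated cells: Cebpa, which was lower, and Cebpb and Id2, which were higher. Each line gives the 250 bases before the RefSeq transcription start, 5′ to 3′ on the gene's strand, from GRCm38.p6. Cebpa lies at chr7:35119043-35119292 on the plus strand, Cebpb at chr2:167688665-167688914 on the plus strand and Id2 at chr12:25096093-25096342 on the minus strand. Capitals mark matches, on either strand, to the half-site of CREB, the cyclic AMP responsive factor, which reads TGACG, to the half-site of the C/EBP family, which reads TTGCG, and to the core of PU.1 sites, which reads GAGGAA.
Cebpa: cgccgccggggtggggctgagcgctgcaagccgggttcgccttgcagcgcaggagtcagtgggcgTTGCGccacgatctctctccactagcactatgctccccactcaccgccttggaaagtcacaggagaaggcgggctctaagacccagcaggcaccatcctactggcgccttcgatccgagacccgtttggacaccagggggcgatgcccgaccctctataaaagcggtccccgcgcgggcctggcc
Cebpb: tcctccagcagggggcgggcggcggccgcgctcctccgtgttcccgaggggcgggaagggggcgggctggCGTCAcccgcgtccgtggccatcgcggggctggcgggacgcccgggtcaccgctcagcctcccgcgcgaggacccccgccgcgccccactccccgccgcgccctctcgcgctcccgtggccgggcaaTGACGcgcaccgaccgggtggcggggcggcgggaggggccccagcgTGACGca
Id2: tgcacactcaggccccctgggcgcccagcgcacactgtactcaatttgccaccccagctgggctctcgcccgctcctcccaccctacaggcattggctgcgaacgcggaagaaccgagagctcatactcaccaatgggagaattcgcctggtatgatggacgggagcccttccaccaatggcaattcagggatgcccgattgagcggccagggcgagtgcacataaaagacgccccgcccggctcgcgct

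The Cebpb window held 3 CREB half-sites, with first bases 180, 53 and 7 bases before the start, the most distant of them on the reverse strand. Cebpa held a single C/EBP half-site 185 bases before the start, and Id2 none of the 3 motifs. Over 32817 promoter windows of the same length, 17.7% held at least 1 CREB half-site and 0.689% held 3 or more, 14.5% held a C/EBP half-site and 23.3% a PU.1 core. RefSeq entries were matched for 6 of the 9 members, with 10 windows in all. Spi1, Cebpd and Cebpe had no entry. Each of the 4 Zeb2 windows and the Batf3 window held 1 PU.1 core, and 2 overlapping Zeb2 windows each held 1 CREB half-site. The 2 Runx3 windows held none of these letters. The CREB half-site and the PU.1 core of the 2 overlapping Zeb2 windows are the same sites, counted in each window. Within a window no match overlapped another, and a match describes the sequence only.

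Across the members, LPS+8-Br-cAMP against LPS set apart Cebpa and Spi1, both lower, while no member was 2-fold higher. Thus 2 of 8 measured members were at least 2-fold lower, where 5.81% of all 12572 measured genes were, and 0 of 8 were at least 2-fold higher, where 6.49% were (12.3% in either direction). LPS against unstimulated had 1 of 8 members at least 2-fold lower, Cebpa, where 13.0% of 12283 genes were, and 0 higher, where 6.64% were (19.6% in either direction). LPS+8-Br-cAMP against unstimulated, which shares its arrays with the other comparisons, had Cebpb and Id2 at least 2-fold higher (9.36% of 12793 genes) and Cebpa and Spi1 lower (15.8%, or 25.1% in either direction). The median log2 difference of the 8 members was 0.014, 0.21 and 0.23 in these comparisons, beside medians over all measured genes of 0.049, -0.21 and -0.12. Of all genes past 2-fold, 52.8%, 33.8% and 37.3% were higher in these comparisons, shares that depended on the scaling: quantile normalization gave 55.3%, 43.7% and 47.0%, cyclic loess 55.7%, 45.7% and 48.6%, scaling by the hybridisation spike controls (spike scaling) 66.4%, 15.7% and 24.5%, and the signals as deposited 3.13%, 17.5% and 4.46%.

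**Figure D1:**
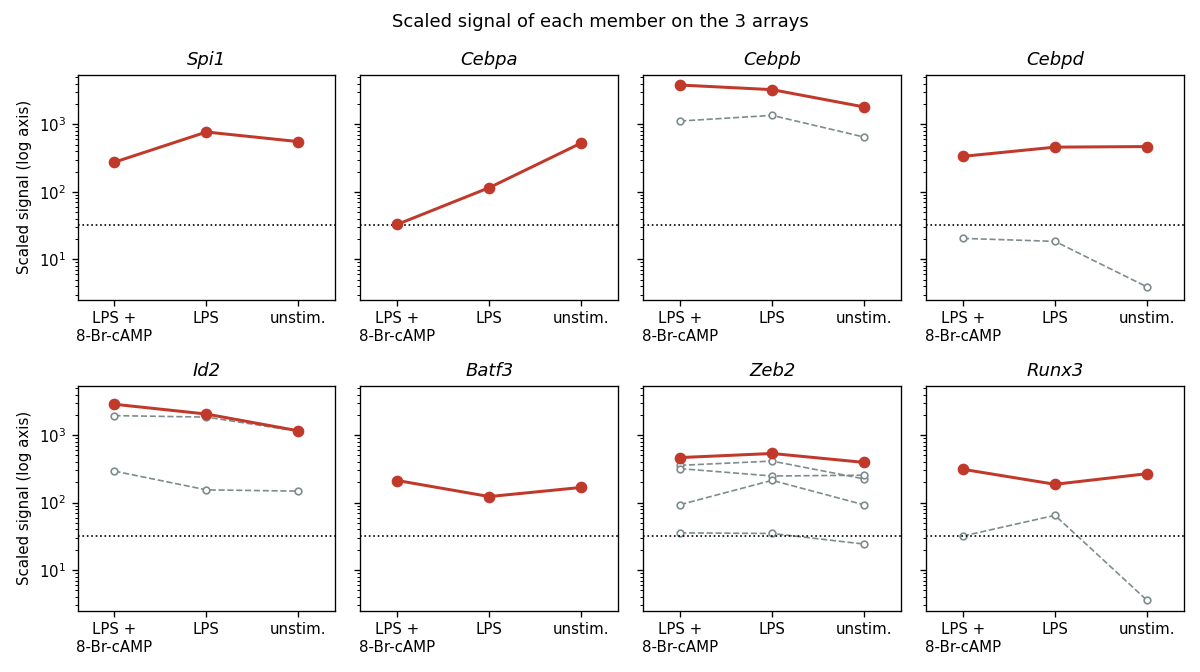
Scaled signal (log axis) of the 8 measured members on the LPS+8-Br-cAMP, LPS and unstimulated arrays, 1 array each. Red filled points are the probe set with the highest mean signal, grey open points the other probe sets of the gene, lines only join points of a probe set, and the dotted line is the floor of 32.5. Cebpa steps down to the floor with LPS+8-Br-cAMP, while Cebpb and Id2 are lowest in unstimulated cells by every probe set shown.

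Spi1 had a scaled signal of 275 with LPS+8-Br-cAMP, 771 with LPS and 555 in unstimulated cells, by its single probe set 1418747_at. It was 2.80-fold lower with LPS+8-Br-cAMP than with LPS, a log2 difference of -1.49, which is larger than the error of 1 probe set. Only 1.66% of the measured genes had a lower difference in that comparison. LPS alone was 0.47 above unstimulated, within that error, so the LPS and unstimulated levels were not separable and the LPS+8-Br-cAMP level was the lowest. Against unstimulated cells the difference was -1.01, just past 2-fold. It missed 2-fold under median scaling, quantile normalization and cyclic loess (-0.98 under both of these) and with a pseudocount (-0.93). The difference from LPS was from -2.29 to -1.35 over all alternatives. Summed granulocyte and macrophage markers, which come from cells that also contain PU.1, were lower on the same array (values above). So was the B cell sum, which on the other arrays lay mostly in Ighm, Igha and Jchain. Summed dendritic cell markers were higher. Of these 11 markers 8 were higher and 3 lower with LPS+8-Br-cAMP than with LPS. Their median was 0.23, but -0.013 under quantile normalization. The part of all these cell types in the Spi1 difference was not tested. In these bulk samples fewer cells of a type and less RNA per cell cannot be told apart.

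Known partners of PU.1 went different ways. Irf8, which pairs with PU.1 and drives monocyte and type 1 dendritic cell fate, read 998 with LPS+8-Br-cAMP, 2455 with LPS and 1479 unstimulated. Its log2 difference from LPS was -1.30, and its second probe set gave -1.15. Irf4, the related partner used in type 2 dendritic cells and B cells, read 592, 222 and 203 in the same order, 1.41 above LPS but 0.28 by its second probe set. Against unstimulated cells Irf8 was -0.57 and -0.48 by its 2 probe sets, within the error of 1 probe set, and Irf4 was 1.54 and 0.61.

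Of 21 measured targets of PU.1, 0 were at least 2-fold lower with LPS+8-Br-cAMP than with LPS (5.81% of all genes) and 1 was higher (6.49%), shares near the background, with a median of 0.13 (0.049 over all genes). The higher gene was Fcgr3, a low-affinity IgG receptor, at 1.06, and Cd14, the LPS co-receptor, was at 0.92. The lowest were Adgre1, which encodes the macrophage antigen F4/80, at -0.84, and Ncf1, a subunit of the phagocyte oxidase, at -0.78. Second probe sets gave -1.42 for Msr1 (-0.78 by its brightest) and 1.07 for Fcgr1 (0.43 by its brightest). Csf1r, the macrophage growth factor receptor, read 8465, 7691 and 7593 with LPS+8-Br-cAMP, LPS and no stimulation by its brightest probe set. Its second gave -0.82 for LPS against unstimulated. With LPS against unstimulated 3 of 21 were at least 2-fold higher and 0 lower (6.64% and 13.0% of all genes), with a median of -0.042. The 3 higher were Il1b at 3.20, Fcgr1 at 1.49 (0.53 by its second probe set) and Cd14 at 1.37. Btk, a signalling kinase, was at -0.74, and Tlr4 was at -0.73 but -1.47 by its second probe set.

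Cebpa had the largest differences of the members, and they ran the same way at each step. Its probe set 1418982_at read 32.9 with LPS+8-Br-cAMP, 115 with LPS and 529.7 unstimulated. With LPS it was 4.59-fold lower than in unstimulated cells (log2 difference -2.20), and with LPS+8-Br-cAMP 3.51-fold lower than with LPS (-1.81). Against unstimulated cells LPS+8-Br-cAMP was 16.1-fold lower (-4.01), the 9th lowest of 12793 measured genes, and all these differences exceeded the error of 1 probe set. It ranked 97th lowest of 12283 genes for LPS against unstimulated and 83rd lowest of 12572 for LPS+8-Br-cAMP against LPS. The signal with LPS+8-Br-cAMP was 1.01 times the floor, so that level is at the edge of what counts as measured. With the floor at the 75th percentile the difference from LPS was only -0.081, because the LPS signal then lay near the floor too, and that from unstimulated cells was -2.28. A pseudocount in place of the floor gave -1.18 from LPS and -3.11 from unstimulated cells, so the size of both differences, and the 16.1-fold, depends on how signals near background are treated. The LPS against unstimulated difference stayed between -2.53 and -1.93 over all alternatives.

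Granulocyte genes, whose precursors are the cells in which Cebpa is best known, were set beside these values. With LPS against unstimulated the 13 granulocyte markers had a median of -0.0033, 0 past 2-fold (19.6% of all genes). Cebpa was 4.59-fold lower in that comparison, and the part of granulocytic cells in it was not tested. With LPS+8-Br-cAMP against LPS all 13 were lower, 8 of them at least 2-fold (5.81% of all genes), with a median of -1.16. Their part in the Cebpa difference there was not tested. The list of granulocyte genes that includes targets of C/EBP epsilon had 9 of 15 at least 2-fold lower and 0 higher (median -1.11). Over all genes these shares were 5.81% and 6.49%. The list shares 11 of its 15 genes with the 13 markers. Its lowest members were the primary granule genes Mpo at -2.48 and Elane at -2.38 and the secondary granule genes Ltf at -2.16 and Ngp at -1.97. With LPS against unstimulated the list had 1 of 15 lower (13.0% of all genes), the gelatinase Mmp9 at -1.10. Lcn2 was at 0.80, Csf3r at -0.73 and Cybb at 0.46. Myb, a factor of progenitors, read 30.7 with LPS+8-Br-cAMP, under the floor, against 96.6 with LPS and 93.6 unstimulated, at least 2.97-fold below LPS. Its second probe set gave -1.28.

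**Figure D2:**
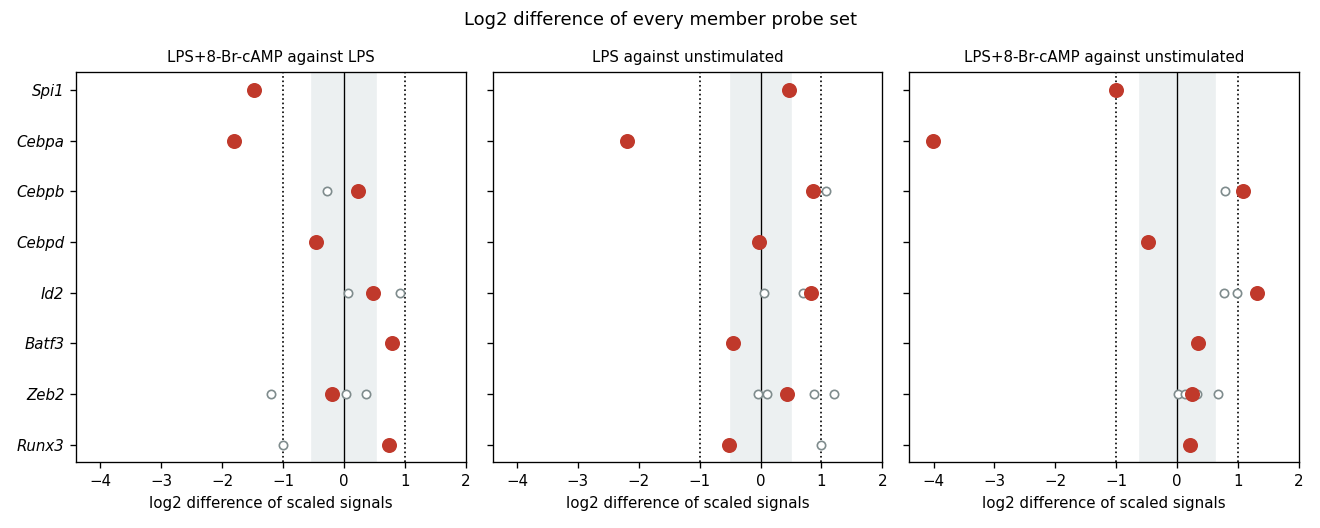
Log2 difference of every member probe set in the 3 comparisons, with red filled points for the probe set of highest mean signal and open points for the others. Signals under the floor were set to it, dotted lines mark 2-fold, and the grey band is the error of 1 probe set on either side of 0. Cebpa lies at -1.81, -2.20 and -4.01 and Spi1 leaves the band downwards only in the comparisons with 8-Br-cAMP.

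Cebpb ran opposite to Cebpa with LPS against unstimulated cells. Its brighter probe set 1418901_at read 3832 with LPS+8-Br-cAMP, 3272 with LPS and 1812 unstimulated, and its second probe set 1427844_a_at read 1121, 1360 and 648. LPS was 0.85 above unstimulated by the brighter and 1.07 by the second probe set, both larger than the error of 1 probe set. The step to LPS+8-Br-cAMP was 0.23 by the brighter and -0.28 by the second, within that error and of opposite sign. Against unstimulated cells LPS+8-Br-cAMP was 2.11-fold higher (1.08) by the brighter probe set and 1.73-fold (0.79) by the second. That call was lost under quantile normalization, cyclic loess, spike scaling and the mean over probe sets. The signals as deposited gave -0.013, where the median of all genes was -1.08. Cebpb was thus lowest in unstimulated cells, and its levels with LPS and with LPS+8-Br-cAMP did not differ beyond the scatter.

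Cebpd differed little. Its probe set 1423233_at read 336 with LPS+8-Br-cAMP, 460 with LPS and 469 unstimulated, log2 differences of -0.45 from LPS and -0.48 from unstimulated cells, both within the error of 1 probe set. Its second probe set was under the floor on all arrays. Among dimer partners of the family, Cebpg, which lacks an activation domain, read 136, 115 and 307 in the same order, -1.41 for LPS against unstimulated (-1.61 by its second probe set), and Ddit3, a stress-induced family member, read 129, 121 and 166.

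Inflammatory targets of C/EBP beta and delta were mostly higher with LPS. Of 16 measured, 11 were at least 2-fold higher than unstimulated and 0 lower (6.64% and 13.0% of all genes), with a median of 2.98. Many are also driven by other LPS-responsive factors. The largest differences were for the cytokines Il6 and Tnf, at least 185-fold and 160-fold higher, Ccl3 at 6.65 and Ptgs2 at 5.66. With LPS+8-Br-cAMP against LPS 4 of 17 were at least 2-fold higher and 2 lower (6.49% and 5.81% of all genes). The median was 0.64, but -0.17 with the signals as deposited, where the median of all genes was -0.65. The granulocyte growth factor Csf3 read 596 against 58.5, Il10 was at least 7.20-fold higher, and Tnf and Ccl3 were at -4.20 and -2.33.

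In scaled signal Id2 read highest with LPS+8-Br-cAMP by all of its probe sets. Only the dimmest of them was above LPS by more than the error of 1 probe set. The brightest, 1422537_a_at, read 2873 with LPS+8-Br-cAMP, 2057 with LPS and 1160.4 unstimulated, and 1435176_a_at read 1949, 1855 and 1145. The dimmest, 1453596_at, read 293, 155 and 148. LPS+8-Br-cAMP was 2.48-fold above unstimulated by the brightest (1.31), 1.70-fold by the second (0.77) and 1.98-fold by the dimmest (0.98). The probe sets placed the step differently: LPS against unstimulated gave 0.83, 0.70 and 0.061, and LPS+8-Br-cAMP against LPS gave 0.48, 0.071 and 0.92, in the same order. The difference from unstimulated cells stayed above 0 in all 11 alternatives, from 0.21 to 1.32, but was under 2-fold with quantile normalization, the signals as deposited, only probe sets ending in _at and the second probe set. With the signals as deposited Id2 was -0.33 from LPS, where the median of all genes was -0.65, and the other 4 scalings gave 0.32 to 0.62.

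The E proteins that Id2 holds inactive did not move together. Tcf4, the E protein of plasmacytoid cells, read 414 with LPS+8-Br-cAMP, 450.5 with LPS and 155 unstimulated, 1.54 for LPS against unstimulated and 1.43 by its second probe set. Tcf12 read 169, 182 and 374, with -1.04 and -1.02 by its 2 brightest probe sets, and Tcf3 read 121, 74.5 and 139. The related inhibitors Id1 and Id3 differed by 0.15 and 0.44 with LPS and by -0.29 and 0.35 with LPS+8-Br-cAMP against LPS. Tcf4 was therefore lowest and Tcf12 highest in unstimulated cells, and neither was past 2-fold between LPS+8-Br-cAMP and LPS.

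Batf3 had 1 probe set, 1453076_at, which read 213 with LPS+8-Br-cAMP, 123 with LPS and 168 unstimulated. It was 1.73-fold above LPS (0.79), more than the error of 1 probe set but under 2-fold, and -0.45 for LPS against unstimulated, within it. With the signals as deposited the difference from LPS was -0.019, where the median of all genes was -0.65. Its relatives were further apart with LPS against unstimulated. Batf, which can replace Batf3, read 576, 411 and 108, 1.92 above unstimulated with LPS, and Batf2 read 247, 298 and 55.4, 2.43 above. With LPS+8-Br-cAMP against LPS these relatives of Batf3 were at 0.49 and -0.27, within the error of 1 probe set. Of its Jun partners, Junb read 1379, 669 and 322, higher by 1.04 with LPS+8-Br-cAMP against LPS and by 1.06 with LPS against unstimulated, and Jun read 181, 615 and 453, at -1.77 (-0.27 by its second probe set) against LPS.

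Among genes of type 1 dendritic cells, Xcr1, a chemokine receptor that defines these cells, was under the floor on all arrays. Of 11 measured genes 1 was at least 2-fold higher and 1 lower with LPS+8-Br-cAMP against LPS (6.49% and 5.81% of all genes, median -0.40). These were Thbd at 1.60 and the antigen uptake receptor Ly75 at -1.30. Cd8a was at -0.92 (at least 1.89-fold lower) and Tlr3 at -0.55, but -1.23 by its second probe set. With LPS against unstimulated 2 were higher and 0 lower (6.64% and 13.0% of all genes, median 0.042). The higher genes were Ly75 at 1.79 and the double-stranded RNA sensor Tlr3 at 1.51 (0.87 by its second probe set). Cd24a was at -0.91 and Flt3, the receptor of a dendritic cell growth factor, at -0.70.

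Zeb2 had 5 probe sets that did not move alike. The brightest, 1456389_at, read 466 with LPS+8-Br-cAMP, 535 with LPS and 395 unstimulated, differences of -0.20 and 0.44 that lie within the error of 1 probe set. Probe set 1434298_at read 93.4, 214 and 92.7, 2.29-fold lower with LPS+8-Br-cAMP than with LPS and 2.31-fold higher with LPS than unstimulated. The others were 1422748_at at 357, 413 and 224, 1458941_at at 319, 248 and 255, and 1454200_at close to the floor at 35.6, 34.9 and 24.3. LPS was above unstimulated by 4 of 5 probe sets, and the same probe set alone passed 2-fold in both comparisons. Its relative Zeb1 read 488, 220 and 118, 1.15 above LPS with LPS+8-Br-cAMP but 0.21 by its second probe set.

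Plasmacytoid cell genes included Siglech, Ccr9 and Pacsin1, all under the floor on every array. Of 8 measured 2 were at least 2-fold higher and 1 lower with LPS+8-Br-cAMP against LPS (6.49% and 5.81% of all genes, median 0.12). These were Klk1 at 1.73 (0.52 by its second probe set), the DNA sensor Tlr9 at least 2.34-fold higher and the RNA sensor Tlr7 at -1.06. With LPS against unstimulated 2 were higher and 0 lower (6.64% and 13.0% of all genes, median -0.41). The higher genes were Irf7, 16.0-fold, and Bst2 at 1.31, both also interferon-induced.

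Runx3 gave opposite readings by its probe sets. The brighter, 1440275_at, read 312 with LPS+8-Br-cAMP, 187 with LPS and 269 unstimulated, 0.74 above LPS and -0.52 for LPS against unstimulated. The dimmer, 1421467_at, read 64.8 with LPS and was under the floor on both other arrays, at least 1.99-fold higher with LPS than in either. No order of the Runx3 levels can be given from these readings. Its binding partner Cbfb read 943, 862 and 914 with LPS+8-Br-cAMP, LPS and no stimulation.

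The list of genes tied to Runx3 in dendritic or lymphoid cells mixes genes it raises with genes it holds down. With LPS+8-Br-cAMP against LPS 1 of 12 was at least 2-fold higher and 3 lower (6.49% and 5.81% of all genes, median -0.46). The homing receptor Ccr7 was 2.83-fold higher, Ifng at least 3.87-fold lower and Gzmb at least 2.50-fold lower, beside Spi1, which is itself on that list. With LPS against unstimulated 3 were higher and 1 lower (6.64% and 13.0% of all genes, median 0.22). Il15ra was at least 15.2-fold higher by its brightest probe set, but its second gave a log2 difference of 1.72. Ifng was at least 3.87-fold and Gzmb at least 2.50-fold higher, and Il2rb at least 2.15-fold lower. Cd4, Eomes and Tbx21 were under the floor on all arrays, as were the T cell markers named above.

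**Figure D3:**
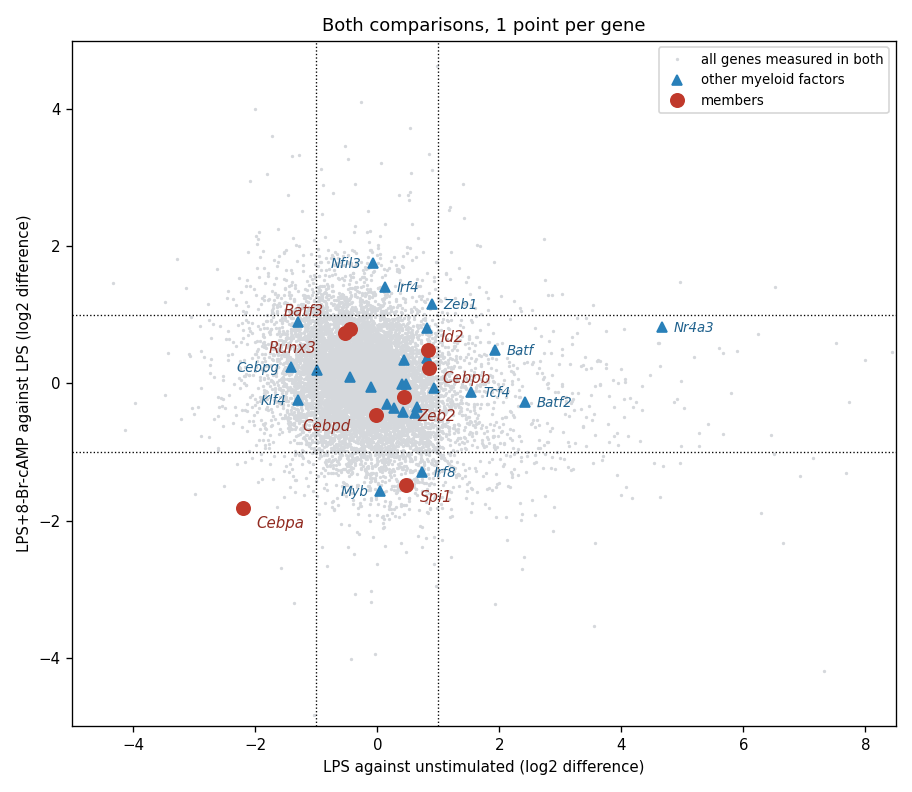
Log2 difference for LPS+8-Br-cAMP against LPS (vertical axis) and for LPS against unstimulated (horizontal axis), 1 point per gene measured in both. Red points are the members, blue triangles other myeloid factors, grey points all genes, and dotted lines mark 2-fold. Both axes use the LPS array, so they are not independent, and Cebpa at -2.20 and -1.81 lies at the lower left.

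Other factors of myeloid fate had 3 of 26 at least 2-fold higher and 2 lower with LPS+8-Br-cAMP against LPS (median -0.0032). They had 4 higher and 3 lower with LPS against unstimulated (median 0.43). Over all genes the shares were 6.49% and 5.81% in the first comparison and 6.64% and 13.0% in the second. With LPS+8-Br-cAMP the leading gene was Nfil3, a repressor needed for type 1 dendritic cells and NK cells, which read 1357 against 400.0 with LPS and 420.1 unstimulated (1.76 above LPS). Nr4a3, an orphan nuclear receptor of migrating dendritic cells, was 4.66 higher with LPS than unstimulated by its brightest probe set but -0.70 by its second. The list of partners and antagonists of the members, which shares several of these genes, had 2 of 20 higher and 2 lower (median 0.11) and, for LPS against unstimulated, 4 of 21 higher and 2 lower (median 0.13). Over the scalings tried, the medians of these 2 lists, of the PU.1 targets, of the C/EBP beta and delta targets and of the plasmacytoid cell genes took either sign for LPS+8-Br-cAMP against LPS. So did those of the partners, PU.1 targets, granulocyte genes, type 1 dendritic cell genes and Runx3 genes for LPS against unstimulated.

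**Figure D4:**
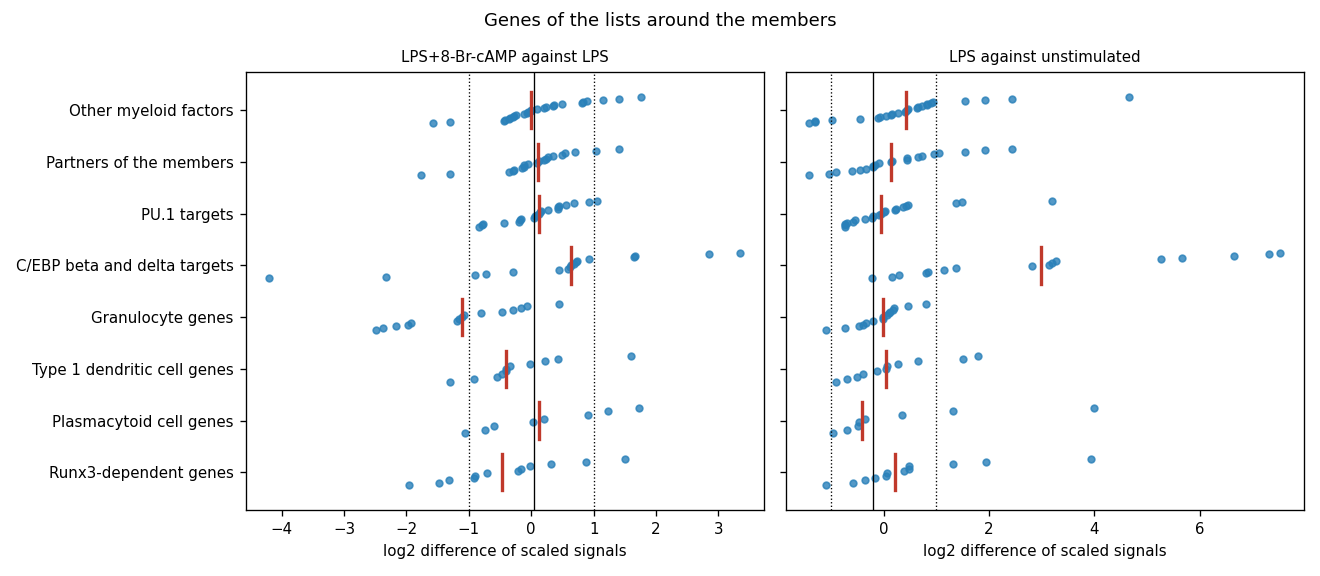
Log2 difference of every measured gene (blue points) of the 8 lists around the members, with the list median as a red bar, for LPS+8-Br-cAMP against LPS and for LPS against unstimulated. The black line is the median of all measured genes and dotted lines mark 2-fold. Granulocyte genes lie lowest in the first comparison (median -1.11) and C/EBP beta and delta targets highest in the second (2.98).

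The genes whose pattern over the 3 arrays was most like that of Cebpa and Spi1 were picked by the distance between their log2 differences in LPS+8-Br-cAMP against LPS and LPS against unstimulated, among 9077 genes above the floor on all arrays. For Cebpa these were Dgkz, a diacylglycerol kinase, at a distance of 0.45, Tspan14 at 0.51 and Nceh1, a cholesteryl ester hydrolase, at 0.64. Dgkz read 55.3 with LPS+8-Br-cAMP, 156 with LPS and 886 unstimulated. For Spi1 they were Gucy1b1, a subunit of soluble guanylate cyclase, at 0.044, Sat1, the polyamine acetyltransferase, at 0.056 and Naa16 at 0.080. Sat1 read 1585, 4410 and 3057 in the same order. With 3 arrays such a match says no more than that the values run alike.

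**Figure D5:**
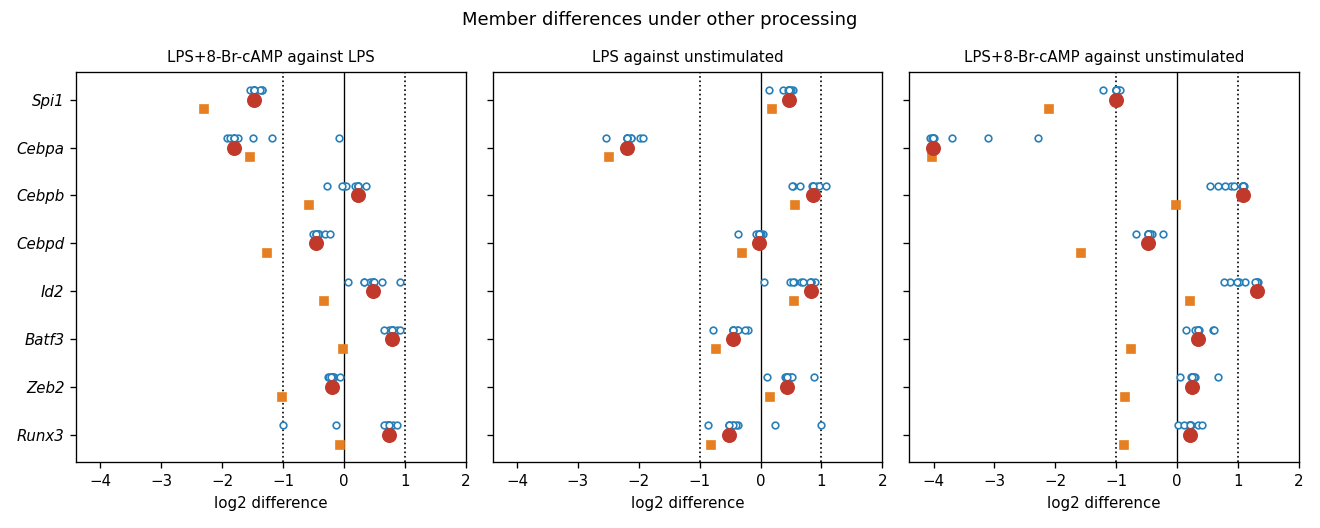
Log2 difference of each member in the 3 comparisons as reported (red) and under other processing (open blue circles, other scalings, floors and probe set choices; orange squares, signals as deposited). Dotted lines mark 2-fold. The deposited signals, which keep the dimness of the LPS+8-Br-cAMP array, lie furthest from the reported values for most members in the comparisons with that array, and Cebpa keeps its sign throughout.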

How the data were processed

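Total RNA of each culture was labelled as biotinylated cRNA and hybridised to an Affymetrix mouse array, per the labels' protocols. The authors deposited 1 linear signal intensity per probe set and array, and the submitters' processing notes name MAS5. Its version and settings are not stated in the sources used here, and no detection calls were used. The 64 control probe sets were left out. Each array was multiplied to bring its mean, trimmed by 2% at each end, to the average of the 3 (factors 1.63 for LPS+8-Br-cAMP, 0.929 for LPS and 0.763 for unstimulated). The floor, 32.5 (log2 5.02), was the highest array median after scaling. Signals under it were set to it before log2, so where an array lies at the floor the difference is a bound. A gene was measured if above the floor on 1 of the arrays compared, and was called at 2-fold.

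Of 45037 probe sets, GEO's platform annotation gave 1 gene for 34945, several for 932 and none for 9160. Symbols followed RefSeq by gene identifier. The error of 1 probe set is the SD of the difference between the log2 differences of a gene's 2 brightest probe sets, divided by the square root of 2. All members were described with every probe set, and from each of 8 gene lists and 7 marker lists the counts, with up to 4 genes of largest difference for 2 comparisons and partners of the members. Other genes named were those most alike Cebpa and Spi1. Members and lists were chosen with earlier results of these data known, and the lists support nothing beyond their counts. The number of arrays, 1 per condition, limits the precision. Steps were tested on simulated data, with changes planted only in genes well above the floor. That test did not cover values near the floor, and its noise was smaller than the error of 1 probe set. Alternatives were 5 other scalings (cyclic loess with limma 3.58.1), 2 floors, a pseudocount of 32, 3 choices of probe set and thresholds of 1.5-fold and 3-fold. Python 3.11.15 was used.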

Additional observations from a re-analysis of the deposited data

How the results depend on the processing

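Members' log2 differences (24 results) were recomputed under 11 alternatives, 251 values in all. Of these 228 moved by less than the error of 1 probe set, 22 moved by more and 1, past 2-fold as reported, turned its sign: Cebpb for LPS+8-Br-cAMP against unstimulated was -0.0127 with the signals as deposited, which keep the dimness of that array. In all 16 values had the other sign, 8 of them with the signals as deposited, and the other 15 were of differences reported under 2-fold. The 45 list medians gave 483 values, of which 435 moved by less than that error. Counts of members past 2-fold changed as follows. For LPS+8-Br-cAMP against LPS, 0 higher became 2 at 1.5-fold. The 2 lower became 4 with deposited signals, 1 with the floor at the 75th percentile (Spi1), 1 at 3-fold (Cebpa) and 0 by the second brightest probe set, which neither Cebpa nor Spi1 has. For LPS against unstimulated, 0 higher became 1 by the second brightest probe set (Cebpb) and 2 at 1.5-fold, and 1 lower became 0 by the second brightest. For LPS+8-Br-cAMP against unstimulated, the 2 higher became 0 under quantile normalization, deposited signals, the second brightest probe set and 3-fold, and 1 under cyclic loess, spike scaling, the mean over probe sets and only probe sets ending in _at. The 2 lower became 3 with deposited signals (with Cebpd), 1 (Cebpa) under quantile normalization, median scaling, cyclic loess, a pseudocount and 3-fold, and 0 by the second brightest. Where no value above shows it, the cause was not tested. The median of all genes moved with scaling, from -0.65 to 0.16 for LPS+8-Br-cAMP against LPS, from -0.51 to -0.098 for LPS against unstimulated and from -1.08 to -0.011 for LPS+8-Br-cAMP against unstimulated. Relative to it, Cebpa and Spi1 stayed lower with LPS+8-Br-cAMP than with LPS under all 5 other scalings. No array could be left out, as each condition had 1. Signal over background limits Cebpa with LPS+8-Br-cAMP and the dimmer probe sets of Runx3, Cebpd and Zeb2.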
